A study of Arabidopsis thaliana with 9 samples.

Results

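The genes described here are *AT5G05270*, *DFR* (*AT5G42800*) and *UGT78D2* (*AT5G17050*), 3 genes of flavonoid and anthocyanin synthesis in Arabidopsis thaliana, taken as a list of names and read from 1 probe set each among the 22746 non-control probe sets of the ATH1 array. All 3 genes are on chromosome 5. They were compared in 3 lines with 3 arrays each. CAB3::pBVR2 and 35S::pBVR3 carry a transgene for biliverdin reductase (BVR), an enzyme that reduces the bilins from which the phytochrome chromophore is made and so leaves phytochromes inactive, and No-0 WT is the wild type of their accession. The CAB3 promoter drives BVR in mesophyll and the 35S promoter drives it constitutively. Each name stands for 1 transgenic line. All seeds were given 5 min of red light at 75 μmol m-2 s-1, kept for 3 d in the cold (4 °C) and dark, and then grown for 7 d in continuous far-red (FRc) light. RNA was taken from whole seedlings, in which fewer cells of a type and less RNA per cell cannot be told apart. The question put by the design is whether losing phytochrome in mesophyll and losing it throughout the seedling leave these genes at different levels.

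Flavonoids are built from phenylpropanoids and malonyl units by chalcone synthase and chalcone isomerase, and are then oxidised, reduced and joined to sugars. One branch leads to flavonols, which screen ultraviolet light, and another to anthocyanins, the red and purple pigments. In seedlings, far-red light seen by phytochrome A is a known inducer of anthocyanin. *AT5G05270* belongs to the chalcone-flavanone isomerase family and is listed as *CHIL* in RefSeq, a chalcone isomerase-like protein without enzyme activity that helps chalcone synthase to make its proper product. *DFR* encodes dihydroflavonol reductase, which commits the pathway to anthocyanins and proanthocyanidins. *UGT78D2* encodes a glucosyltransferase that puts glucose on both flavonols and anthocyanidins.

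The 3 genes did not move together. *AT5G05270* was highest in CAB3::pBVR2, intermediate in No-0 WT and lowest in 35S::pBVR3. *DFR* and *UGT78D2* were highest in No-0 WT and did not separate the pBVR lines. All 3 passed limma's moderated F-test across the lines, at an adjusted p of 0.000175 for *AT5G05270*, 0.00214 for *DFR* and 0.0299 for *UGT78D2*, whose call was lost when any 1 of 7 arrays was left out (adjusted p of up to 0.13, without No-0 WT replicate 2). The share of kept probe sets that passed this test was 29.2%, or 4506 of 15436. To be tested, a probe set had to reach the 40th percentile of signal on 1 or more of the 9 arrays. *DFR* met this condition only on 2 No-0 WT arrays, so that it had to be high in one line to be tested, whereas *AT5G05270* and *UGT78D2* met it on all 9.

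*AT5G05270* gave signals of 381, 416 and 448 in CAB3::pBVR2 and 144, 139 and 145 in 35S::pBVR3, against 235, 217 and 220 in No-0 WT (linear array signals after each array was shifted to a common 75th percentile). The arrays of the 3 lines formed separate ranges with no overlap, and those of 35S::pBVR3 lay closest to one another. Of all kept probe sets, 11.5% had every CAB3::pBVR2 array above every 35S::pBVR3 array (15.9% below), 24% had every CAB3::pBVR2 array above every No-0 WT array (25.8% below), and 19.1% had every 35S::pBVR3 array below every No-0 WT array (14.1% above). Means were 415 ± 33.4 in CAB3::pBVR2 and 143 ± 3.04 in 35S::pBVR3, against 224 ± 9.53 in No-0 WT (SD, n = 3 each). The gene stood at the 67.0th to 70.4th percentile of its array in CAB3::pBVR2 and at the 47.4th to 48.5th in 35S::pBVR3, against the 55.5th to 58.6th in No-0 WT.

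*DFR* gave signals of 31.5, 22.1 and 29.7 in CAB3::pBVR2 and 41.1, 35.7 and 28.0 in 35S::pBVR3, against 68.1, 97.0 and 136 in No-0 WT. Each No-0 WT array was above every array of both pBVR lines, while the ranges of the pBVR lines overlapped. The brightest of 27 bacterial control probe sets, for which the RNA holds no target, served as each array's background. On the same scale the background was 27.1 to 48.0 in CAB3::pBVR2 and 28.0 to 34.0 in 35S::pBVR3, against 27.0 to 31.6 in No-0 WT. *DFR* was above it on 0 of 3 CAB3::pBVR2 arrays, 2 of 3 35S::pBVR3 arrays and 3 of 3 No-0 WT arrays. Means were 27.8 ± 5.03 in CAB3::pBVR2 and 35.0 ± 6.56 in 35S::pBVR3, against 100.4 ± 34.2 in No-0 WT (SD, n = 3 each). The No-0 WT arrays showed the widest relative spread of the 9 gene and line combinations, with a coefficient of variation of 34.1%.

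*UGT78D2* gave signals of 416, 444 and 510 in CAB3::pBVR2 and 454, 519 and 410 in 35S::pBVR3, against 650, 784 and 638 in No-0 WT. All 6 arrays of the pBVR lines were below all 3 of No-0 WT, and the pBVR lines covered nearly the same range. Means were 457 ± 48.0 in CAB3::pBVR2 and 461 ± 54.9 in 35S::pBVR3, against 691 ± 81.1 in No-0 WT (SD, n = 3 each). An arrangement of this kind, with both pBVR lines wholly below No-0 WT, was found for 2489 probe sets (16.1% of those kept), *DFR* among them.

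**Figure D1:**
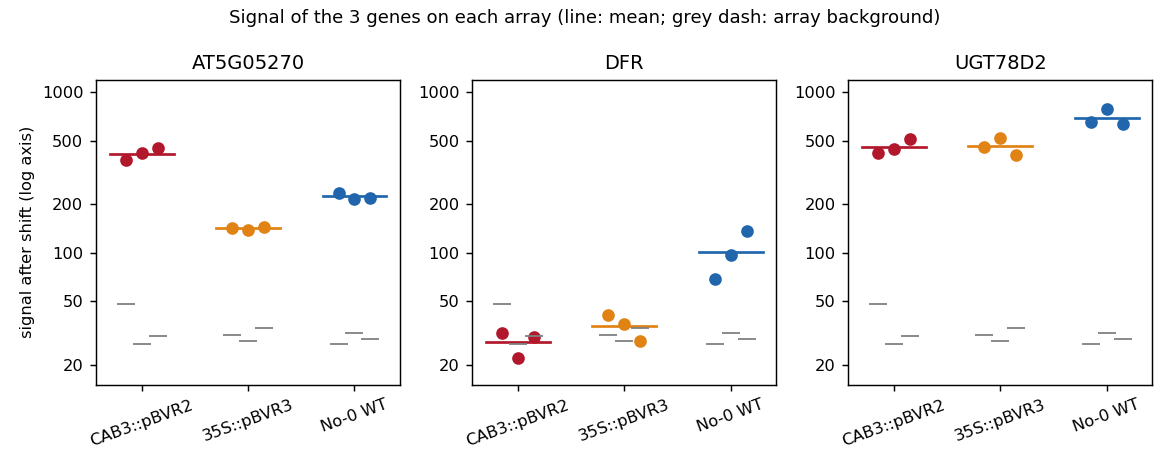
Signal of each gene on each array (log axis; signal after the shift to a common 75th percentile), with CAB3::pBVR2, 35S::pBVR3, then No-0 WT from left to right, coloured lines for means and grey dashes for the background of each array. *AT5G05270* forms 3 separate levels with CAB3::pBVR2 on top, *UGT78D2* forms 2, and *DFR* lies at or near background in both pBVR lines.

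Between CAB3::pBVR2 and 35S::pBVR3, *AT5G05270* was the only 1 of the 3 genes that passed the test. Its signal in CAB3::pBVR2 was 2.9-fold that of 35S::pBVR3 (log2 fold change 1.54 ± 0.13, SE; 95% confidence interval 1.24 to 1.84; adjusted p = 0.000409, limma). This direction follows the labels of the arrays and is opposite to the one given for the gene in the study's text. The study's supplementary list marks the same probe set as raised in CAB3::pBVR2. Of all kept probe sets, 8.43% passed in this contrast, and 1.74% passed as higher in CAB3::pBVR2 (268, with 637 when the replicate number was a block, 76 without a filter on signal and 103 to 239 when 1 array was left out, the lowest without CAB3::pBVR2 replicate 1). Ordered by log2 fold change from the most raised, *AT5G05270* ranked 77 of 15436. The study's own list of probe sets that differed between these lines was made on these arrays and holds *AT5G05270*. The study's text also singles out the gene for a difference between these lines. Its presence on the list, and its call and rank in this contrast, are therefore not independent evidence. *DFR* and *UGT78D2* are not on the list.

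For *DFR* the same contrast gave a log2 fold change of −0.33 (95% confidence interval −0.94 to 0.28; adjusted p = 0.52), and no bound is given because the arrays overlapped and 1 of 35S::pBVR3 was also not above background. The interval leaves room for a decrease of nearly 1 on the log2 scale, and the signals in CAB3::pBVR2 set no lower end to the level of *DFR* there. For *UGT78D2* the log2 fold change was −0.01 (95% confidence interval −0.38 to 0.35; adjusted p = 0.975), a narrower interval from a gene well above background. Leaving out single arrays moved the value between −0.094 (without CAB3::pBVR2 replicate 3) and 0.076 (without 35S::pBVR3 replicate 2), so no direction is given for it.

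CAB3::pBVR2 differed from No-0 WT in all 3 genes. *AT5G05270* was 1.85-fold higher in CAB3::pBVR2 (log2 fold change 0.89 ± 0.13, SE; 95% confidence interval 0.59 to 1.18; adjusted p = 0.000899, limma). *DFR* was lower in CAB3::pBVR2, with a bound of at least 2.84-fold taken against background (log2 fold change of the signals −1.81; 95% confidence interval −2.42 to −1.20; adjusted p = 0.000892, limma). The bound is a point estimate that leaves out sampling error, and no CAB3::pBVR2 signal of *DFR* was above background. *DFR* had passed the filter through No-0 WT arrays alone, which favours a lower value in CAB3::pBVR2. *UGT78D2* was 1.51-fold lower (log2 fold change −0.60 ± 0.16, SE; 95% confidence interval −0.96 to −0.23; adjusted p = 0.0181). This was the contrast in which the largest share of kept probe sets passed, 36.9%, with 16.7% higher and 20.2% lower. Ordered by log2 fold change, *AT5G05270* ranked 1939 from the most raised. The call of *UGT78D2* did not hold on the deposited scaling of the arrays (log2 fold change −0.45, adjusted p = 0.0548), under which the median of all kept probe sets moved to 0.17. It was also lost without CAB3::pBVR2 replicate 1 (0.0579) or No-0 WT replicate 2 (0.0703). Relative to the median of all probe sets *UGT78D2* stood at −0.62, a value that is the same in both scalings by construction.

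35S::pBVR3 was lower than No-0 WT in *AT5G05270* and *DFR*. *AT5G05270* was 1.57-fold lower in 35S::pBVR3 (log2 fold change −0.65 ± 0.13, SE; 95% confidence interval −0.95 to −0.35; adjusted p = 0.0214, limma). *DFR* was 2.8-fold lower (log2 fold change −1.48 ± 0.27, SE; 95% confidence interval −2.09 to −0.87; adjusted p = 0.0161) and ranked 34 from the most lowered of 15436 probe sets. In 35S::pBVR3 *DFR* was above background on 2 of 3 arrays, and not far above it there, so the size of this fold is uncertain. *DFR* had passed the filter through No-0 WT arrays alone, which favours such a rank. *UGT79B1* (rank 7) and *UGT75C1* (rank 25) passed the filter likewise, and their adjusted p was 0.229 and 0.384 (limma). In this contrast 9.54% of kept probe sets passed, and 5.29% passed as lower (817, with 1323 when the replicate number was a block, 125 without a filter on signal and 114 to 736 when 1 array was left out, the lowest without No-0 WT replicate 2). *UGT78D2* had a log2 fold change of −0.58 (95% confidence interval −0.95 to −0.22) and an adjusted p of 0.0533, which misses the threshold of 0.05. With the replicate number as a block its adjusted p was 0.0414. The calls of *AT5G05270* and *DFR* rest on adjusted p-values close to the threshold, and were lost in some fits with 1 array fewer. When 1 array was left out, the log2 fold change was −0.67 to −0.62 for *AT5G05270* and −1.74 to −1.23 for *DFR*. Without a filter on signal the adjusted p-values of these genes became 0.0587 and 0.0554. The call of *AT5G05270* was also lost without any one 35S::pBVR3 array (adjusted p = 0.0581 to 0.0604) and without No-0 WT replicate 1 (0.0671) or 2 (0.0663), and that of *DFR* without 35S::pBVR3 replicate 3 (0.0542) or No-0 WT replicate 2 (0.0573).

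**Figure D2:**
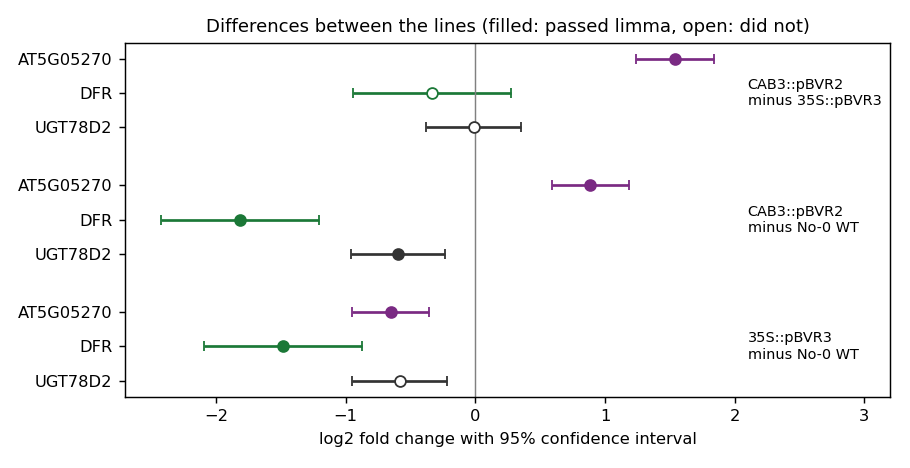
Log2 fold change (x axis) with its 95% confidence interval for each gene in each pair of lines, filled where the adjusted p of limma passed 0.05. *AT5G05270* lies right of 0 in both contrasts with CAB3::pBVR2 on top and left of 0 in 35S::pBVR3 against No-0 WT, while *DFR* and *UGT78D2* are left of 0 against No-0 WT and have intervals that span 0 between the pBVR lines.

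Both contrasts with No-0 WT use the same 3 wild-type arrays, and their values are given side by side without a test of likeness. For *AT5G05270* they were 0.89 in CAB3::pBVR2 and −0.65 in 35S::pBVR3, for *DFR* −1.81 and −1.48, and for *UGT78D2* −0.60 and −0.58. The direct contrast of the pBVR lines tests the difference within each of these pairs of values, and it passed for *AT5G05270*. The arrangement of *AT5G05270*, with every CAB3::pBVR2 array above every No-0 WT array and every No-0 WT array above every 35S::pBVR3 array, was shared by 6 of 15436 kept probe sets (0.0389%). The others with a name were *tny* (an AP2-type transcription factor gene), *AT5G58900* and *AT1G50400*. The opposite arrangement was found for 17 (0.11%). The number of probe sets with the arrangement of *AT5G05270* was 9 on the deposited scaling and 8 after quantile normalization, with *AT5G05270* among them each time. *AT5G05270* had the highest fold change between the pBVR lines of the 6. The study had singled out the gene for a difference between the pBVR lines on these arrays. The arrangement and its rarity are therefore a description.

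**Figure D3:**
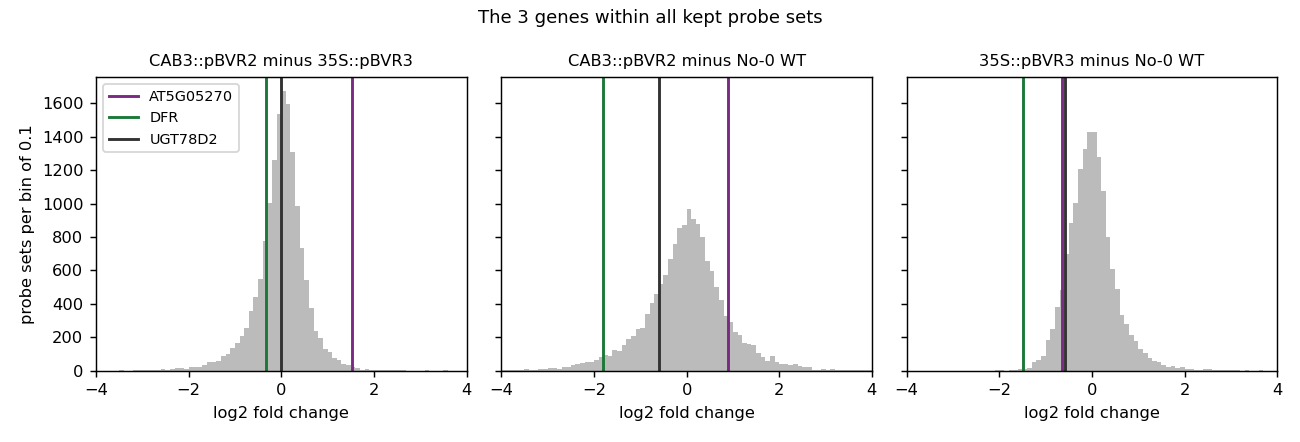
Number of kept probe sets (y axis) by log2 fold change (x axis, bins of 0.1) in each contrast, with the 3 genes as vertical lines; values past the ends of the axis are not drawn. *AT5G05270* lies in the upper tail between the pBVR lines, at a log2 fold change of 1.54, and *DFR* in the lower tail of 35S::pBVR3 against No-0 WT, at −1.48. *DFR* passed the filter through No-0 WT arrays alone.

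Ratios of 2 genes on the same array do not depend on how the arrays were scaled. They show whether genes changed unequally, and their absolute size has no meaning across probe sets. The log2 ratio of *AT5G05270* over *UGT78D2* was −0.13, −0.09 and −0.19 on the CAB3::pBVR2 arrays, −1.66, −1.90 and −1.50 on the 35S::pBVR3 arrays, and −1.47, −1.85 and −1.53 on the No-0 WT arrays. CAB3::pBVR2 stood apart from both other lines, which overlapped. In CAB3::pBVR2 the mean ratio was higher by 1.55 against 35S::pBVR3 and by 1.48 against No-0 WT (exact permutation test, two-sided, p = 0.1 each, the smallest that 3 against 3 arrays allow). Between 35S::pBVR3 and No-0 WT it differed by −0.07 (exact permutation p = 0.6), with overlapping arrays.

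The log2 ratio of *AT5G05270* over *DFR* averaged 3.92 ± 0.32 in CAB3::pBVR2 and 2.05 ± 0.29 in 35S::pBVR3, against 1.21 ± 0.55 in No-0 WT (SD, n = 3 each). No 2 lines overlapped (exact p = 0.1 in each of the 3 comparisons), although in CAB3::pBVR2 the ratio rests on *DFR* signals not above background. The log2 ratio of *UGT78D2* over *DFR* averaged 4.05 ± 0.31 in CAB3::pBVR2 and 3.73 ± 0.23 in 35S::pBVR3, against 2.83 ± 0.54 in No-0 WT. It was higher by 0.90 in 35S::pBVR3 against No-0 WT, without overlap. In 35S::pBVR3 *DFR* was above background on only 2 of 3 arrays, which limits both ratios over *DFR* there. In CAB3::pBVR2 the ratio of *UGT78D2* over *DFR*, too, rests on *DFR* signals not above background, and no size is given for its difference from No-0 WT. With a smallest possible p of 0.1, none of the 9 comparisons of ratios could pass a threshold of 0.05 (lowest value adjusted for their number 0.129), so that these ratios are a description.

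**Figure D4:**
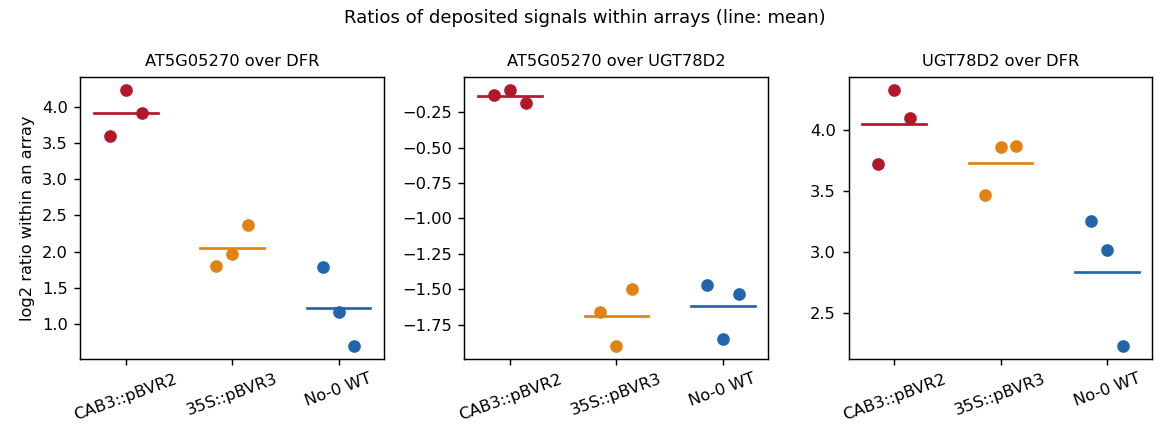
Log2 ratio of deposited signals within each array (y axis) for each pair of the 3 genes, with CAB3::pBVR2, 35S::pBVR3, then No-0 WT from left to right and lines for means. *AT5G05270* over *UGT78D2* lies between −0.19 and −0.09 in CAB3::pBVR2 and between −1.90 and −1.47 in the other lines.

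The rest of the pathway could be read only in part, because the annotation of the array used here pairs few of its genes with a probe set. Of 60 genes in the lists for phenylpropanoid entry, early and late enzymes, decoration, transport and regulation, 11 were named by it, the 3 genes above included, and *HY5* was named by the study's own list only. Of these 12, 8 were kept. The enzymes between chalcone synthase and flavonol synthase, and the MYB and bHLH regulators of anthocyanin, were not analysed here. *DFR*, *UGT75C1* and *UGT79B1* passed the filter through No-0 WT arrays alone (2, 2 and 1 arrays), so that counts and medians over the kept genes are pulled towards higher levels in No-0 WT by the filter and are given as a description only. Of the 7 kept genes named by the annotation, 0 passed as lower and 1 as higher in CAB3::pBVR2 against 35S::pBVR3, where 6.69% of all kept probe sets passed as lower and 1.74% as higher. Against No-0 WT, 3 were lower and 1 was higher in CAB3::pBVR2, where 20.2% of all kept probe sets passed as lower and 16.7% as higher. In 35S::pBVR3 against No-0 WT, 2 were lower (4 with the replicate number as a block) and 0 higher, where 5.29% of all kept probe sets passed as lower and 4.25% as higher. Both counts of 0 were also 0 in limma at an unadjusted p under 0.05. The median log2 fold change of the 7 was −0.01 between the pBVR lines, where that of all kept probe sets was 0.03. In CAB3::pBVR2 against No-0 WT it was −1.52, the value of *UGT79B1*, or −0.60 with genes not above background set at their bound, against 0.02 for all probe sets, and in 35S::pBVR3 against No-0 WT it was −0.96, against −0.03.

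Among the decorating enzymes, *UGT75C1* and *UGT79B1*, which put glucose and xylose on anthocyanins, varied too much between arrays of 1 line for a difference to be seen. *UGT75C1* gave signals of 5.61, 21.8 and 6.95 in CAB3::pBVR2 and 7.03, 45.1 and 11.4 in 35S::pBVR3, against 8.08, 96.7 and 127 in No-0 WT. It was above background on 0, 1 and 2 arrays of these lines, in that order, and the ranges overlapped (F-test adjusted p = 0.264). *UGT79B1* gave 90.9, 14.8 and 19.4 in CAB3::pBVR2 and 75.4, 27.9 and 3.85 in 35S::pBVR3, against 59.0, 77.1 and 134 in No-0 WT (F-test adjusted p = 0.289). It was above background on 1, 1 and 3 arrays of these lines, in that order. *UGT89C1*, which adds rhamnose to flavonols, gave 192, 190 and 139 in CAB3::pBVR2 and 80.0, 187 and 79.9 in 35S::pBVR3, against 195, 187 and 189 in No-0 WT. Its arrays in No-0 WT lay close together, and in 35S::pBVR3 a single array reached the wild-type level while the others were less than 0.5 of it. No contrast of *UGT89C1* passed (adjusted p from 0.122 to 0.739).

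The genes not kept were *BAN*, the anthocyanidin reductase of the seed coat, *UGT78D1* and *UGT78D3*, which add rhamnose and arabinose to flavonols, and *5MAT*, a malonyltransferase of anthocyanins. *UGT78D3* lies 2 genes from *UGT78D2* on the chromosome in the RefSeq annotation, with *AT5G17040* between them. Its signals ran from 0.914 to 5.80 in CAB3::pBVR2 and from 1.38 to 10.7 in 35S::pBVR3, against 1.70 to 5.32 in No-0 WT, all below background. The probe set of *AT5G17040* was not kept either. *BAN* was below background on all 9 arrays.

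*HY5* and *HYH* encode related bZIP transcription factors that promote photomorphogenesis and bind promoters of flavonoid genes. *HY5* gave signals of 348, 329 and 552 in CAB3::pBVR2 and 175, 140 and 238 in 35S::pBVR3, against 182, 153 and 188 in No-0 WT. In CAB3::pBVR2 it passed as 2.22-fold higher against 35S::pBVR3 (adjusted p = 0.0242, limma) and as higher against No-0 WT (adjusted p = 0.00561), but it was named from the study's list, which was chosen on these arrays. Of all kept probe sets, 1.74% and 16.7% passed as higher in these contrasts. *HYH* gave 115, 121 and 246 in CAB3::pBVR2 and 240, 182 and 293 in 35S::pBVR3, against 517, 364 and 499 in No-0 WT. Every array of both pBVR lines was below every No-0 WT array, as was found for 16.1% of kept probe sets. The log2 fold change of *HYH* was −1.59 in CAB3::pBVR2 against No-0 WT, which passed (adjusted p = 0.00383), and −0.96 in 35S::pBVR3 against No-0 WT, which did not (adjusted p = 0.0866). In CAB3::pBVR2 against No-0 WT, 20.2% of kept probe sets passed as lower. The levels of *HY5* and *AT5G05270* were both highest in CAB3::pBVR2. In 35S::pBVR3 against No-0 WT the log2 fold change of *HY5* was 0.05 (adjusted p = 0.927, limma), where that of *AT5G05270* was −0.65. A link between *HY5* and *AT5G05270* was not tested.

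**Figure D5:**
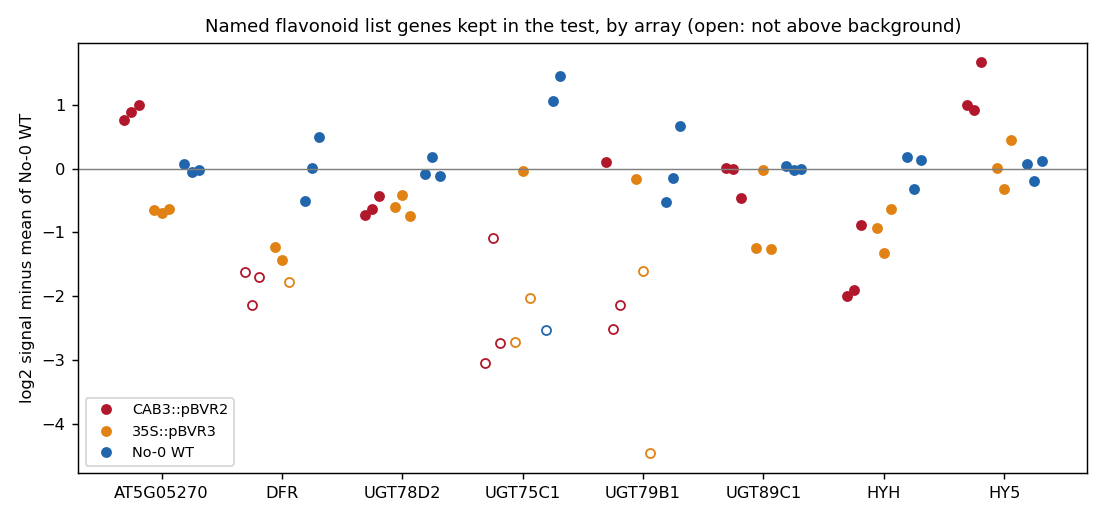
Log2 signal of each named and kept flavonoid gene on each array relative to the mean of No-0 WT (y axis), with CAB3::pBVR2, 35S::pBVR3, then No-0 WT from left to right within a gene and open symbols for arrays not above background. The arrays of *AT5G05270* and *UGT78D2* lie close together within a line, whereas those of *UGT75C1* and *UGT79B1* spread over several log2 units.

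The kept and named probe sets most like each gene over the 9 arrays were found from the root mean square distance of log2 signals, each relative to its own mean in No-0 WT. For *AT5G05270* the closest were *AT5G16200* (0.32), *AT5G58900* (0.33), *AT2G16890* (0.34), *AT3G62930* (0.35) and *AT4G01897* (0.37), and none of all kept probe sets came within 0.25. All 5 had smaller differences from No-0 WT than *AT5G05270* in both pBVR lines. For *DFR* the closest were *AT2G42710* (0.33), *AT5G17760* (0.34), *AT2G17033* (0.37), *AT3G59780* (0.38) and *HCF101* (0.39), the last of which encodes an iron-sulphur scaffold protein needed for photosystem I. For *DFR*, too, none came within 0.25. *UGT78D2* had 651 other probe sets within that distance, the closest named ones being *RRP41L* (0.09), *AT1G07970* (0.10), *AT3G25410* (0.11), *CYP71* (0.11) and *AT5G13100* (0.14). By this measure *UGT78D2* had many close neighbours, and *AT5G05270* and *DFR*, whose differences between lines were larger, had none.

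Arrays of 1 line correlated at 0.948 to 0.968 across probe sets, and arrays of different lines at 0.847 to 0.946. BVR has no probe set here, so the transgene could not be checked on the arrays. Markers of cell types and signs of RNA quality were set beside these results. The summed signal of the 3 named mesophyll and cotyledon markers of 5 (*CA1*, *LHCB4.1* and *RCA*) was 18400 to 20567 in CAB3::pBVR2 and 37146 to 51573 in 35S::pBVR3, against 57449 to 60141 in No-0 WT. *CA1* was named from the study's list, which was chosen on these arrays, so its difference between the pBVR lines is not independent. Of those named by the annotation, *LHCB4.1* had means of 9759 in CAB3::pBVR2 and 15909 in 35S::pBVR3, against 20554 in No-0 WT. *RCA* had means of 7590, 15253 and 21674 in the same order of lines. The 2 named root markers of 4 (*EXPA7* and *PYK10*) summed to 13696 to 19067 in CAB3::pBVR2 and 13931 to 19582 in 35S::pBVR3, against 13482 to 15105 in No-0 WT, with overlap of all 3 lines. *PYK10* made up nearly all of this sum. *EXPA7* had means of 68.6 in CAB3::pBVR2 and 42.5 in 35S::pBVR3, against 37.1 in No-0 WT, with overlapping arrays. The seed storage protein gene *CRU3*, the only 1 named of 4 seed markers, had signals of 1170 to 2665 in CAB3::pBVR2 and 4354 to 4885 in 35S::pBVR3, against 106 to 762 in No-0 WT. *CRU3*, too, was named from the study's list. No listed marker of epidermis, vasculature or flower was named. The ratio of the 3′ to the 5′ probe set of GAPDH, a sign of RNA quality, was 1.47 to 2.06 in CAB3::pBVR2 and 1.36 to 1.75 in 35S::pBVR3, against 1.33 to 1.42 in No-0 WT. The same ratio of actin overlapped in all 3 lines, with 1.22 to 1.80 in CAB3::pBVR2 and 1.11 to 1.52 in 35S::pBVR3, against 1.19 to 2.61 in No-0 WT. The deposited signal of the 25S rRNA control was 235.3 to 748.9 in CAB3::pBVR2 and 554.5 to 6522.3 in 35S::pBVR3, against 1223.8 to 8230.2 in No-0 WT. The study lists *CA1* among energy-related genes misregulated between the pBVR lines. In the mesophyll marker sum, fewer mesophyll cells and less RNA of the markers per cell cannot be told apart. This sum was highest in No-0 WT, as were *DFR* and *UGT78D2*, which did not separate the pBVR lines. *AT5G05270* followed the order of none of these measures. Their part in the results was not tested.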

How the data were processed

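RNA of 3 independent extractions per line was hybridised to 1 ATH1 array each. The authors deposited linear signal intensities made with MAS5 per the labels, whose version is not given in the sources used here. The shift, baseline and flag filter that the methods applied in GeneSpring are not in these intensities, and the methods' flag filter was replaced by a filter on signal. Values were put on the log2 scale (3 values of 0 set to 0.1), shifted to each array's 75th percentile and filtered for 1 or more of the 9 arrays reaching that array's 40th percentile. This kept 15436 of 22746 probe sets, of which 97.6% to 99.3% lay above background on each array; 64 control probe sets were left out. Printed signals are the shifted values on a linear scale. The number of arrays limits the precision.

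The lines were compared with limma 3.58.1 (R 4.3.3; lmFit and eBayes, all 9 arrays in 1 fit, prior degrees of freedom 3.23). Benjamini-Hochberg adjustment ran over every probe set kept, and the threshold was 0.05. The code was tested on simulated data. Folds against a line with no array above background are bounds, computed against the higher of background and signal. Ratios within arrays were compared by exact permutation tests.

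The platform annotation gave 1 gene for 13513 probe sets (13436 matched in RefSeq, assembly TAIR10.1), several for 503 and none for 8730. The study's supplementary list named 347 more. Its fold changes entered no test. Genes named in the text are the 3 genes in full, every named gene of the flavonoid lists, and the 5 named probe sets closest in pattern to each. *tny* and *AT1G50400* were named after their values were seen. The genes and lists were chosen with earlier results of these data known.

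Deviations from the line means were alike in arrays sharing a replicate number (correlations of 0.207 to 0.391 in 9 pairs, against −0.263 to −0.051 in 18 pairs with different numbers). The pairing comes from the data and is not stated by the labels, and the fit with the replicate number as a block was an alternative. The other alternatives were the deposited scaling, quantile normalization, no filter and a stricter filter (60th percentile), a pseudocount of 16, a linear model without moderation, a fit of only the lines compared, and leaving out each array.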

Additional observations from a re-analysis of the deposited data

How the results depend on the processing

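Over 17 alternatives (9 of them leaving out 1 array), *AT5G05270* kept its direction and call in CAB3::pBVR2 against 35S::pBVR3 (log2 fold change 1.44 to 1.62, adjusted p 0.000125 to 0.00401, limma) and against No-0 WT (0.83 to 1.03, adjusted p 0.00037 to 0.0054). *DFR* did so in CAB3::pBVR2 against No-0 WT over the 16 that kept it (−2.07 to −1.41, adjusted p 0.000284 to 0.00697). The F-test calls of both also held. With the stricter filter *DFR* was not kept and has no value.

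On the deposited scaling *UGT78D2* turned to 0.07 between the pBVR lines (adjusted p = 0.817), gave −0.45 in CAB3::pBVR2 against No-0 WT (adjusted p = 0.0548) and an F-test adjusted p of 0.0647. That scaling moved the share of calls that were lower to 68.0% from 79.4% between the pBVR lines, to 41.6% from 54.6% in CAB3::pBVR2 against No-0 WT and to 42.5% from 55.5% in 35S::pBVR3 against No-0 WT. Without a filter more probe sets were tested. *AT5G05270* (−0.65, adjusted p = 0.0587) and *DFR* (−1.48, adjusted p = 0.0554) then no longer passed in 35S::pBVR3 against No-0 WT, *UGT78D2* had an F-test adjusted p of 0.072, and 0 listed genes in place of 2 were lower in 35S::pBVR3. *UGT78D2* passed in 35S::pBVR3 against No-0 WT with the stricter filter (−0.58, adjusted p = 0.0314), the pseudocount (−0.57, adjusted p = 0.0497) and the replicate block (−0.58, adjusted p = 0.0414), with which 4 listed genes were lower. The block changed no other call of the 3 genes.

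Leaving out 1 array gave ranges of −0.67 to −0.62 for *AT5G05270* (adjusted p 0.0273 to 0.0671) and −1.74 to −1.23 for *DFR* (0.0195 to 0.0573) in 35S::pBVR3 against No-0 WT. *UGT78D2* between CAB3::pBVR2 and 35S::pBVR3 ranged from −0.094 to 0.076, positive without CAB3::pBVR2 replicate 1 or 2 or 35S::pBVR3 replicate 2. It ranged from −0.68 to −0.50 in CAB3::pBVR2 against No-0 WT (not passed without CAB3::pBVR2 replicate 1, adjusted p = 0.0579, or No-0 WT replicate 2, 0.0703), from −0.67 to −0.49 in 35S::pBVR3 against No-0 WT, and from 0.0307 to 0.13 in its F-test adjusted p, which missed the threshold without any one array other than CAB3::pBVR2 replicate 3 or 35S::pBVR3 replicate 2. Counts of listed genes ranged from 1 to 2 higher between the pBVR lines (2 without 35S::pBVR3 replicate 2) and from 0 to 3 lower in 35S::pBVR3 against No-0 WT (0 without 35S::pBVR3 replicate 3 or No-0 WT replicate 2). Of all probe sets, 817 were lower in 35S::pBVR3 against No-0 WT, as compared with 125 without a filter and 114 without No-0 WT replicate 2. Where no cause follows from the setting itself, the cause was not tested. *DFR* is limited by background in CAB3::pBVR2 and in part in 35S::pBVR3, and the other 2 genes were above it on all 9 arrays.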
